A study of Mus musculus with 12 samples.

Results

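The pan-lysine-crotonylation (pan-Kcr) peaks of 10 genes of the AMPA receptor were examined in mouse dorsal hippocampus. The genes were taken from a list of names, out of 21887 protein-coding genes in the RefSeq table of GRCm38.p6. The list was chosen with earlier results of these data, or the gene lengths, known. The genes are Gria1, Gria2, Gria3 and Gria4, which encode the subunits, Cacng2, Cacng3 and Cacng8, which encode transmembrane AMPA receptor regulatory proteins (TARPs), Cnih2 and Cnih3, which encode cornichon proteins, and Grip1, which encodes a scaffold protein. Every peak was taken that lay in the gene body or within 5 kb of its ends.

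The series holds 12 mouse libraries, of which 2 were analysed here. Both were made by ChIP-seq, in which crosslinked chromatin is precipitated with an antibody, here against pan-Kcr, and the recovered DNA is sequenced. One came from C57BL/6J mice after training in spatial object recognition, a test of memory for object location (Learning), and the other from C57BL/6J mice left in their home cage (Homecage). The labels give neither age nor sex for these libraries, name no drug treatment for them, and do not say whether animals were pooled. The other 10 libraries were not analysed here. With 1 library per condition no difference has a replicate check, no p-value is given, and every comparison describes these 2 lists. The lists hold positions of peaks and no read counts, so the depth is unknown and the tissue label could not be set against marker genes. The homecage list was much the longer, with 331236 peaks on chromosomes 1 to 19, X and Y against 16002 in the learning list, 20.7 times as many.

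AMPA receptors are tetramers of GluA subunits that carry most fast excitatory transmission in the hippocampus, and a change in their number at the synapse is a main step of long-term potentiation. The GluA2 subunit, encoded by Gria2, makes the channel nearly impermeable to calcium. TARPs and cornichons bind the subunits, carry them to the surface and slow the decay of their currents, and GRIP1 holds GluA2 and GluA3 through PDZ domains. Lysine crotonylation of histones is an acylation found at active promoters and enhancers. A pan-Kcr antibody binds crotonylated lysine without telling one residue or protein from another.

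The upstream sequences of Gria2, Cacng2 and Grip1 are shown because a called peak reached into them, and they give the bases that lie under each peak. Each is the 250 bases before an annotated start in RefSeq (GRCm38.p6), written 5′ to 3′ on the strand of the gene. Capitals mark the bases under a peak, of the learning list at Gria2 and of the homecage list at Cacng2 and Grip1. The gene records of Gria2, Cacng2 and Grip1 reach further upstream than these stretches, which therefore lie inside the records. The positions are chr3:80802836-80803085 (minus strand) for Gria2, chr15:78119281-78119530 (minus strand) for Cacng2 and chr10:119453784-119454033 (plus strand) for the most upstream of the 3 starts listed for Grip1.
Gria2: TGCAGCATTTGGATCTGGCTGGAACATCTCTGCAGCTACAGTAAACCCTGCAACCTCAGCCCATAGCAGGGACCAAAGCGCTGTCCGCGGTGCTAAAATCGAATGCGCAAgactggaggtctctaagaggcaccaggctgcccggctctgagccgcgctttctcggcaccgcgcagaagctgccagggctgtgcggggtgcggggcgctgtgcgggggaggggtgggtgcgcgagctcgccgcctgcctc
Cacng2: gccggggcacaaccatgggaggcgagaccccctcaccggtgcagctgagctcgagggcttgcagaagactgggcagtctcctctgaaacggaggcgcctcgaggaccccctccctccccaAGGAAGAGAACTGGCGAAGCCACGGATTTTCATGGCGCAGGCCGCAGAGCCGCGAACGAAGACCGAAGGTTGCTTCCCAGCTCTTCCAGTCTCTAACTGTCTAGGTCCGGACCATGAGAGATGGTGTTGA
Grip1: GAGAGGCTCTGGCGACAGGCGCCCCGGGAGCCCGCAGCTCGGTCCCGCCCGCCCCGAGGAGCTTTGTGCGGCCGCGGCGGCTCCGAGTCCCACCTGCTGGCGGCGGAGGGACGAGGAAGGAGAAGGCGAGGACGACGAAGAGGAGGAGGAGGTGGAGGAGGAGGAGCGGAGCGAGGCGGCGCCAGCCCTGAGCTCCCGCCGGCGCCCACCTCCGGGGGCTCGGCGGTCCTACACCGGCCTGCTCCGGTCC

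At Gria2 the learning peak covered the outer 110 of the 250 bases and no homecage peak reached them. At Cacng2 the homecage peak covered the 130 bases next to the start, and at Grip1 it covered all 250. Homecage peaks also reached the windows of the other Grip1 starts, which are not printed, covering 28 bases at 119819389 and 39 at 119992922. The printed Grip1 stretch held 31 CpG dinucleotides and was 76% G and C. Gria2 had 19 CpG at 64.8% and Cacng2 had 16 at 62%, where the median of 32851 such windows was 6 CpG and 52.4%. The Cnih3 window was as rich as that of Grip1, with 36 CpG and 76% G and C, and no peak of either list lay on it. The Cacng8 window held 0 CpG.

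The same windows were searched on both strands for GGGCGG, the core of an Sp1 site, for the full cAMP response element TGACGTCA and its core TGACG, which lies within it, for the TATA-box letters TATAAA and for the E-box CACGTG. None of these was found in the printed Gria2 and Cacng2 sequences. The Grip1 sequence held GGGCGG on the opposite strand at -206 to -201 and at -202 to -197 from the start, a pair of overlapping matches, both under the homecage peak. Cnih2 had 3 GGGCGG matches on the opposite strand, and Cnih3 had 1, with a CACGTG at -199 to -194, and neither window lay under a peak. The window of the Grip1 start at 119819389, whose outer 28 bases lay under a homecage peak, held TGACG at -61 to -57 and TATAAA on the opposite strand at -98 to -93, both outside those bases. The windows of Gria4, Cacng3, Cacng8 and the remaining Grip1 start held no match. GGGCGG occurred in 32.7% of all windows, TGACGTCA in 1.55%, TGACG in 17.8%, TATAAA in 12.4% and CACGTG in 6.02%. A match is a run of letters and not evidence of binding.

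The learning list had 5 peaks at the 10 genes, all inside gene bodies, 2 in Gria1, 2 in Gria2 and 1 in Cnih2. No learning peak lay at Gria3, Gria4, Cacng2, Cacng3, Cacng8, Cnih3 or Grip1. The homecage list had 254 peaks, with at least 1 at every gene, from 1 at Gria3 to 80 at Grip1. Thus 3 of 10 genes had a learning peak, where 30.9% of all protein-coding genes did, and 10 of 10 had a homecage peak, where 90.5% did. Both shares were near those of all protein-coding genes, a background not matched for length. Of those genes 15940 were autosomal and under 50 kb, while the members had a median length of 125.5 kb. The homecage list had 50.8 peaks for each learning peak at these genes, against 17.2 over the windows of all protein-coding genes. The value rests on 5 learning peaks, and without Grip1, left out after its values were seen, it was 34.8.

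**Figure D1:**
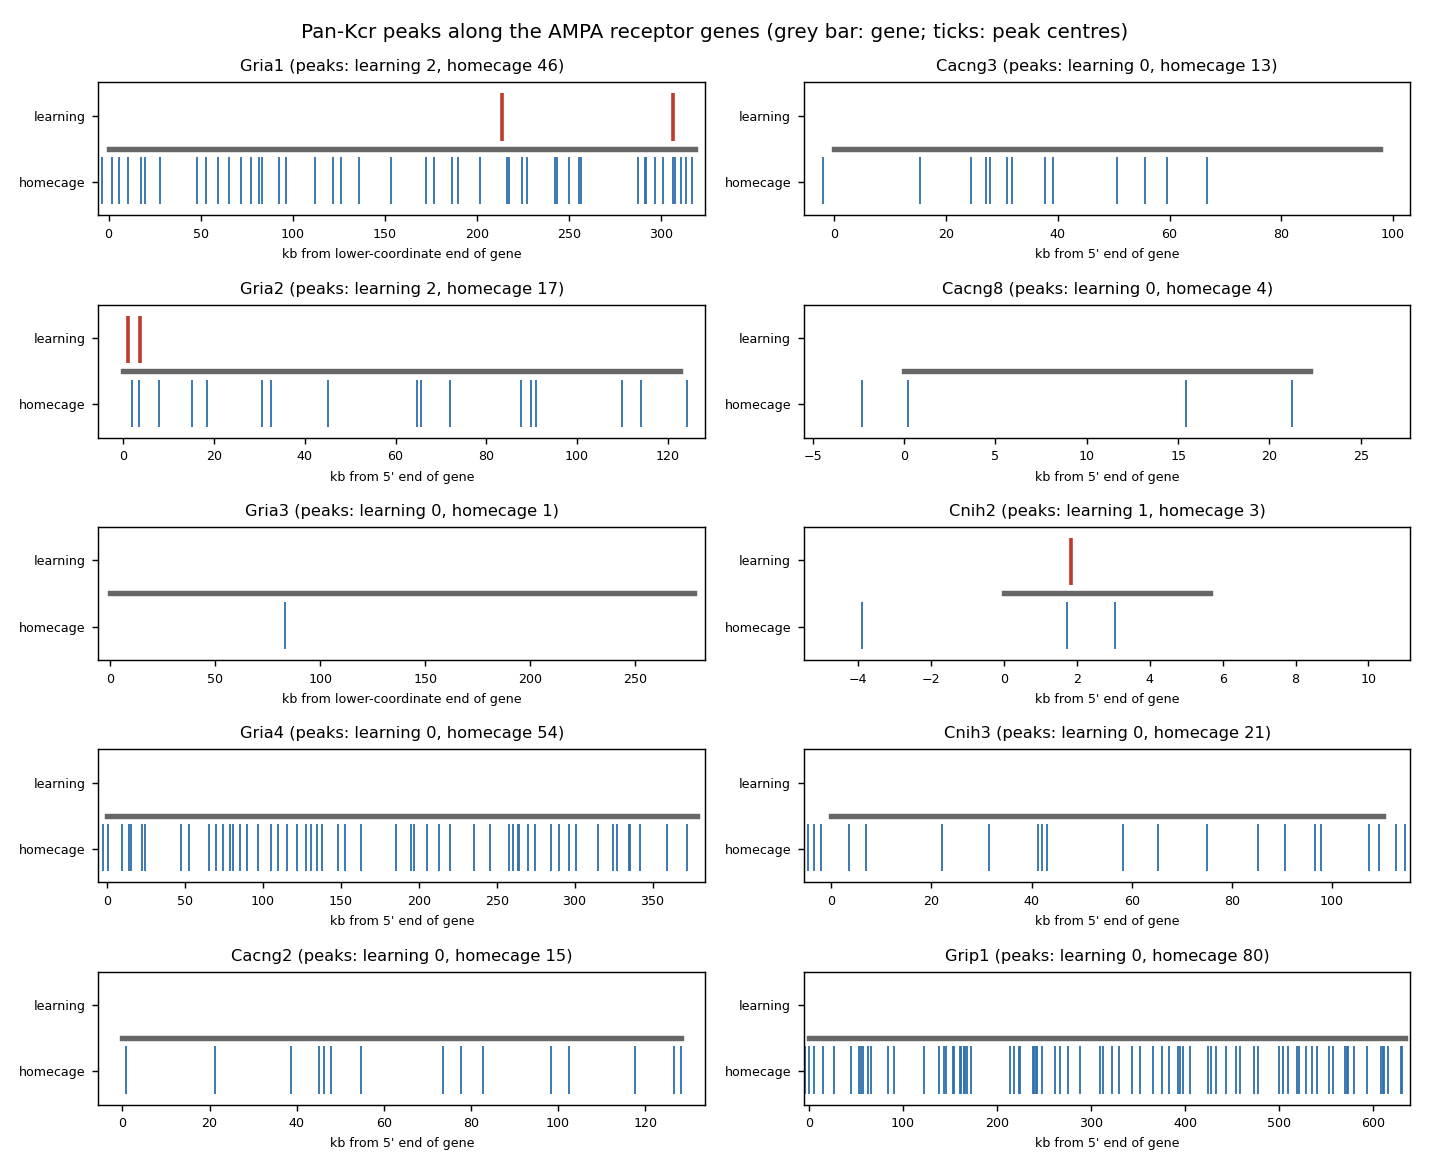
Centres of learning peaks (red, above the gene bar) and homecage peaks (blue, below it) along each gene, in kb from its 5′ end, or from its lower-coordinate end for Gria1 and Gria3, whose strand was not taken from the tables used. The 5 learning peaks fall in Gria1, Gria2 and Cnih2, while all 10 genes have homecage peaks, 1 at Gria3 and up to 80 at Grip1.

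Longer genes offer more room for a peak, so presence was read by length. Of autosomal protein-coding genes over 200 kb, 80.4% had a learning peak, and of the 3 such members Gria1 had one while Gria4 and Grip1 had none. Among genes of 50 to 200 kb the share was 51.6%, and of the members of that size Gria2 had a peak while Cacng2, Cacng3 and Cnih3 had none. Of genes under 50 kb, 25.3% had one, and here Cnih2 did and Cacng8 did not. For homecage peaks the shares were 99.9%, 99.7% and 93.6%, so that a homecage peak at these genes says little about them.

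Peak numbers were also set against the mean density of each gene's own chromosome. Over the 10 genes this density gives 265.8 homecage peaks, and 254 were present, a ratio of 0.956 (95% Poisson interval 0.842 to 1.08). It gives 14.3 learning peaks, and 5 were present, a ratio of 0.351 (0.114 to 0.818). The intervals treat peaks as independent, which neighbouring peaks are not, and cover counting error only. The homecage number was therefore near that of the surrounding chromosomes and the learning number below it. Grip1 took the greatest part of the learning shortfall, with 0 peaks where the density of chromosome 10 gives 5.16. Without Grip1, a comparison made after its values were seen, the 5 peaks compare with 9.11, a ratio of 0.549 (0.178 to 1.28). Per length, the members had 2.28 learning peaks per Mb of gene and flank, against 7.86 over protein-coding windows, and 116 homecage peaks per Mb, against 135. Without the X-linked Gria3, the 9 autosomal members had 2.62 learning and 133 homecage peaks per Mb, so the homecage value was near that of protein-coding windows. The protein-coding values pool genes of all lengths and chromosomes.

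**Figure D2:**
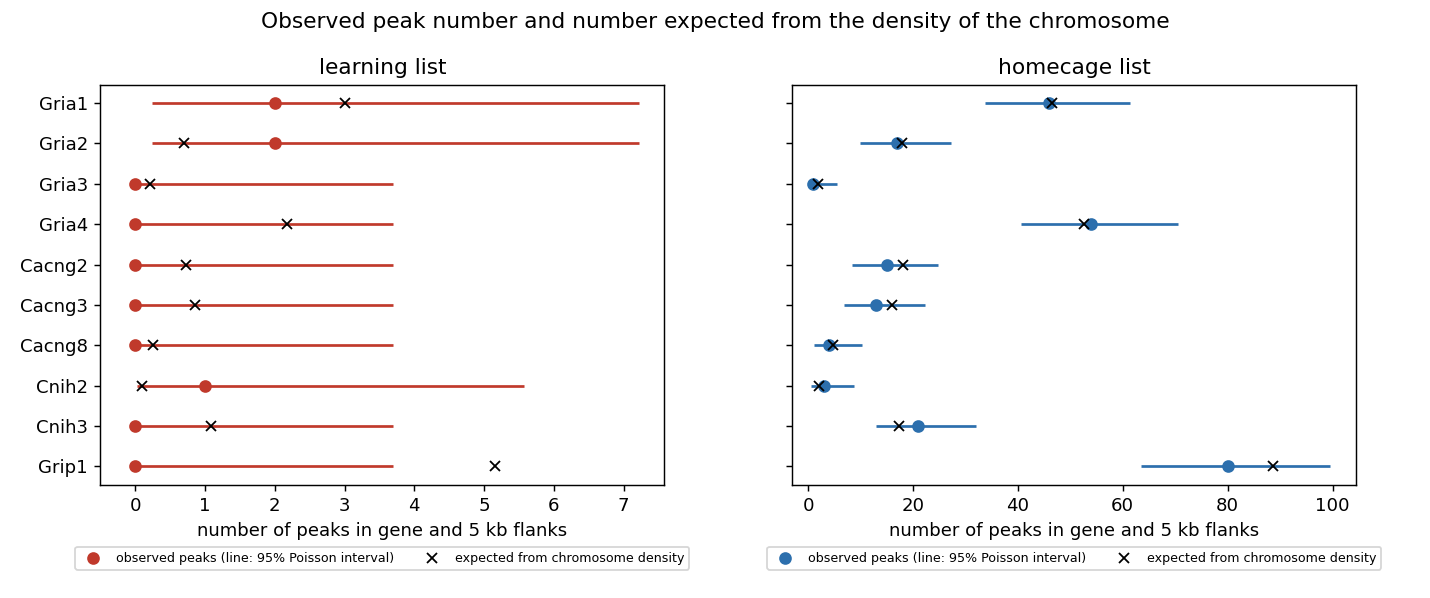
Number of peaks in each gene and its 5 kb flanks (dots, with 95% Poisson intervals) and the number given by the mean density of its chromosome (crosses), for the learning list (left) and the homecage list (right). The interval of each homecage count contains its cross at all 10 genes, and in the learning list the Grip1 cross, at 5.16, lies above the interval of its count of 0.

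Among the subunit genes, which hold 4 learning and 118 homecage peaks together, Gria1 encodes GluA1, the subunit whose insertion at synapses follows strong stimulation. It spans chromosome 11 from 57011571 to 57330244. Its first learning peak, 57225314 to 57225459, was 146 bp wide, and its other, 57318240 to 57318544, was 305 bp wide. Neither overlapped a homecage peak. The former lay 1908 bp from the nearest homecage peak, the widest of the gene (57227368 to 57228193, 826 bp), and the latter lay 23 bp from one of 477 bp (57317740 to 57318216). Gria1 had 46 homecage peaks of 147 to 826 bp, where the chromosome density gives 46.6, and its 2 learning peaks compare with 3.005 (ratio 0.666, interval 0.0806 to 2.40). The longest stretch without a homecage peak ran for 30.8 kb, from 57268261 to 57299098.

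Gria2, on chromosome 3 from 80681450 to 80804227, was the only one of the 8 members with a listed start that had a learning peak within 1 kb of it. The peak at 80802976 to 80803321 was 346 bp wide and ran from 486 to 141 bp before the annotated start at 80802835. It lies inside the gene record, which reaches further upstream than that start. The nearest homecage peak, 80802035 to 80802644 (610 bp), lay on the other side of the start, 191 to 800 bp into the transcript and 331 bp from the learning peak. The other learning peak, 80800447 to 80800805 (359 bp), began 2030 bp into the transcript and shared 326 bp, 90.8% of its width, with a homecage peak at 80800480 to 80801109 (630 bp). So within 3 kb of the Gria2 start each list had 2 peaks, with an overlap at 1 pair and the other pair on opposite sides of the start. Over the whole gene there were 17 homecage peaks (17.8 from the chromosome density), the widest of them 803 bp (80796001 to 80796803). The learning ratio was 2.84 (0.344 to 10.2), an interval too wide to place the gene above or below its chromosome.

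Gria3 encodes GluA3 and lies on chromosome X, from 41400819 to 41678601. It had 0 learning peaks and 1 homecage peak, at 41484126 to 41484344 (219 bp). Chromosome X as a whole was low, with 6.50 homecage peaks per Mb against a median of 135 on the 19 autosomes, and at its density 1.87 homecage and 0.206 learning peaks fall on Gria3. Among all 966 protein-coding X-linked genes, a learning peak was present at 0.518% and a homecage peak at 14.7%. The low count at Gria3 was thus close to that of its chromosome, and the sex of the mice behind these libraries is not given.

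Gria4 encodes GluA4, a subunit of fast kinetics that in the adult hippocampus is found mainly in interneurons. It spans chromosome 9 from 4417893 to 4796234 and had 54 homecage peaks (52.6 from the chromosome density) and 0 learning peaks (2.18). The widest homecage peak of all 10 genes lay in it, at 4535207 to 4536617 (1411 bp), 260.3 kb into the gene. Others over 1 kb lay at 4582770 to 4583792 (1023 bp) and at 4795092 to 4796132 (1041 bp), which runs from 102 to 1142 bp into the transcript. The nearest learning peak to this start was 246762 bp away. Of the Gria4 homecage peaks, 4 overlap Gm46101 and 1 overlaps Gm46100.

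The 3 TARP genes had 32 homecage and 0 learning peaks. Cacng2 encodes stargazin, whose loss causes the stargazer phenotype, and spans chromosome 15 from 77991919 to 78120220. Its 15 homecage peaks (18.2 from the chromosome density) were narrow, with a median of 237 bp and 1 of at least 500 bp (78002223 to 78002722, 500 bp). A 195 bp peak at 78119216 to 78119410 lay across the annotated start, and it also overlaps A730060N03Rik, so its assignment to Cacng2 alone is uncertain. A further 5 of the 15 overlap Gm46520.

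Cacng3 encodes TARP gamma-3 and spans chromosome 7 from 122671744 to 122769393. Of its 13 homecage peaks (15.9 from the chromosome density) the widest was 846 bp (122726935 to 122727780). None lay within 1 kb of the start, the nearest ending 1876 bp before it, and the last 35.9 kb of the window, from 122738516 on, held no homecage peak. Cacng8 encodes TARP gamma-8, the hippocampal member of the family, at chromosome 7 from 3394042 to 3416266. It had 4 homecage peaks (4.77 from the chromosome density). A peak of 353 bp began 33 bp after its start, and the widest, 948 bp at 3391271 to 3392218, ended 1824 bp before it. The nearest learning peak lay 6148 bp before the start, just outside the 5 kb flank. Of the Cacng8 homecage peaks, 1 overlaps Gm23450.

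Of the 2 cornichon genes, Cnih2 is the smallest gene of the list, at chromosome 19 from 5092868 to 5098521, and the only auxiliary gene among the members with a learning peak. That peak, 5096617 to 5096772, was 156 bp wide and lay wholly within a homecage peak of 1047 bp (5096282 to 5097328), which runs from 1193 to 2239 bp into the transcript. The other homecage peaks were 601 bp (5095184 to 5095784), inside the gene, and 302 bp (5102276 to 5102577), which overlaps Rab1b. Homecage peaks covered 12.5% of the Cnih2 window, against 5.53% over all protein-coding windows. With 3 peaks where the density gives 2.10, the ratio of 1.43 had an interval of 0.295 to 4.18.

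Cnih3, on chromosome 1 from 181350459 to 181460641, had 21 homecage peaks (17.4 from the chromosome density), of which 16 touched the gene body and 5 lay in the flanks. The widest was 877 bp (181440610 to 181441486), and the one nearest to the start began 1150 bp into the transcript. The learning list had 0 peaks, where the density gives 1.09. The cornichon genes thus differed in the learning list by a single peak of 156 bp.

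Grip1 is the longest member, on chromosome 10 from 119453238 to 120087267. It had 80 homecage peaks where the density gives 88.6 (ratio 0.903, 0.716 to 1.12), and 22 of them were at least 500 bp wide. Each of its 3 annotated starts had a homecage peak within 1 kb. A 785 bp peak (119453392 to 119454176) crossed the most upstream start, a 986 bp peak (119818181 to 119819166) ended 223 bp before the start at 119819389, and a 244 bp peak (119992883 to 119993126) crossed the start at 119992922. The widest peak of the gene, 1034 bp, lay elsewhere, at 119542766 to 119543799. The 0 learning peaks allow a ratio to the chromosome density of up to 0.715. Of the 945 autosomal genes over 200 kb, 760 had a learning peak and the rest, Gria4 and Grip1 among them, had none. Of the Grip1 homecage peaks, 5 overlap the antisense gene Grip1os1, 4 overlap Gm51815, including the 986 bp peak, and 1 overlaps Gm46207.

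**Figure D3:**
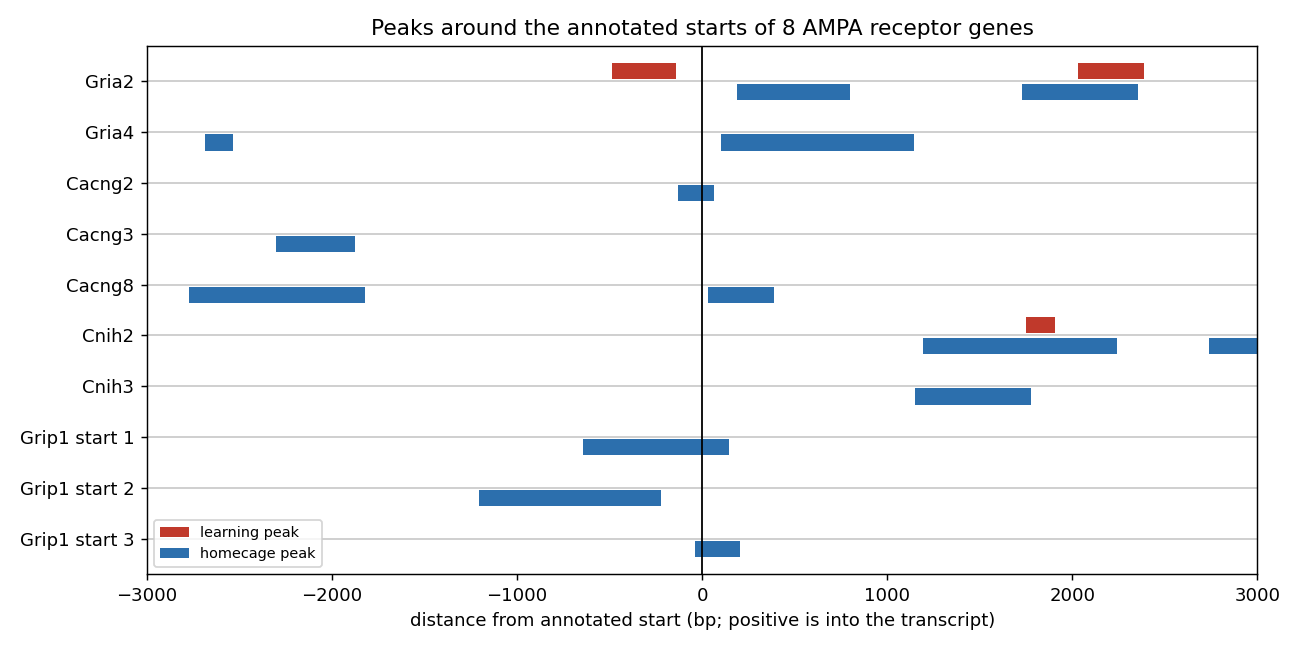
Extent of each learning peak (red) and homecage peak (blue) within 3 kb of the annotated starts of the 8 members in the promoter table, in bp from the start, with positive values into the transcript. A learning peak lies just before the Gria2 start, at -486 to -141 bp, and homecage peaks cross the Cacng2 start and 2 of the Grip1 starts.

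Starts were listed for 8 of the 10 members, all but Gria1 and Gria3. A learning peak within 1 kb of a start was present at 1 of the 8, Gria2, where 16.4% of all protein-coding genes in the table had one. Homecage peaks lay within 1 kb at 5 of 8 (Gria2, Gria4, Cacng2, Cacng8 and Grip1), where 51.5% of genes had one. Both counts were near the background.

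An overlap of at least 1 bp with a homecage peak was found for 2 of the 5 learning peaks (40%, exact Clopper-Pearson 95% interval 5.27 to 85.3%), and over the windows of all protein-coding genes 48.1% did. Within 500 bp a homecage peak was found for 4 of the 5 (80%), against 60.9% over all protein-coding windows. In the other direction 2 of 254 homecage peaks (0.787%, 0.0955 to 2.81%) overlapped a learning peak, against 2.77% over all protein-coding windows. A learning peak that overlaps a homecage peak was present at 2 of 10 genes, where 18.4% of all protein-coding genes had one.

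The learning peaks were 146, 156, 305, 346 and 359 bp wide, none reaching 500 bp, where 17.2% of learning peaks in protein-coding windows did. The homecage peaks had a median width of 342 bp, against 354 bp over protein-coding windows, and 63 of them (24.8%) were at least 500 bp wide, against 25.7%. Among genes with over 10 homecage peaks, the median width ran from 237 bp at Cacng2 to 381 bp at Gria4.

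**Figure D4:**
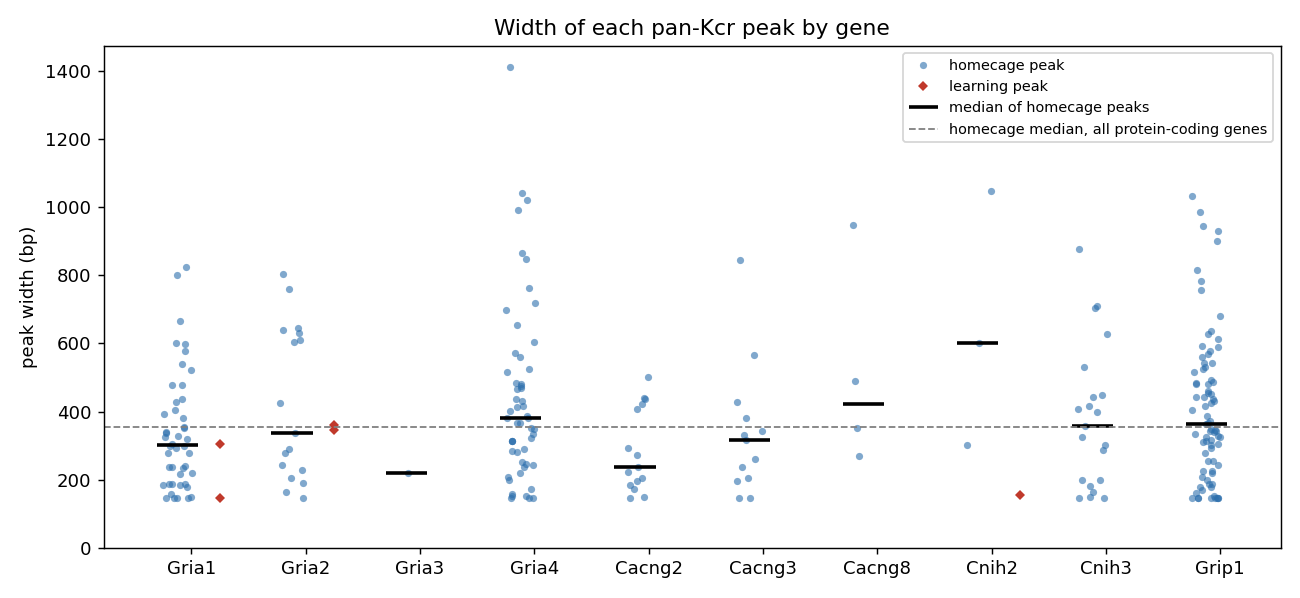
Width in bp of each homecage peak (blue dots, with the median of each gene as a black bar) and each learning peak (red diamonds) by gene, with the homecage median over all protein-coding genes, 354 bp, as a dashed line. The learning peaks lie between 146 and 359 bp, and the widest homecage peak, 1411 bp, is at Gria4.

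Homecage peaks covered 4.58% of the members' windows in all, against 5.53% over protein-coding windows. Over the 9 autosomal members, without the X-linked Gria3, they covered 5.26%. The covered share was lowest at Gria3, with 0.0761%, and next lowest at Cacng2, with 3.10%, and it was 4.09% at Cacng3, 4.76% at Gria1, 5.11% at Grip1 and 5.42% at Gria2. It was higher at Gria4 (6.17%), Cacng8 (6.40%), Cnih3 (6.68%) and Cnih2 (12.5%). By homecage peaks per Mb, Cnih3 with 175 stood at percentile 78.8 of autosomal genes of 50 to 200 kb, and Cacng2 with 109 at percentile 20.7. Gria1 and Gria4, with 140 and 139 per Mb, stood at percentiles 59.2 and 57.3 of genes over 200 kb, and Grip1 with 124 at 33.3. The longest stretch without a homecage peak was 199.3 kb at Gria3 and 40.9 kb at Grip1 (119626060 to 119666976).

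The starts without a learning peak nearby differed in how far away the nearest one lay. From the Cnih2 start it was 1749 bp, at the peak already described, and from the Cacng8 start 6148 bp. It was 31626 bp from the Cnih3 start, 74211 bp from that of Cacng3, 258460 bp from that of Cacng2 and 170857 bp from the most upstream start of Grip1. From its most downstream start the nearest learning peak lay 603157 bp away, beyond the other end of the gene. Learning peaks were sparse everywhere, with an autosomal median of 6.12 per Mb.

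A list of 29 other genes that act in the assembly, traffic or anchoring of AMPA receptors was set beside the members. It was chosen with earlier results of these data, or the gene lengths, known, so it is not an independent reference. In this list 17 genes had a learning peak, where 30.9% of all protein-coding genes did, and 27 a homecage peak, where 90.5% did, the exceptions being Porcn on chromosome X and Nptx2. There were 23 learning peaks where the chromosome densities give 20.1 (ratio 1.14, 0.725 to 1.72), and 435 homecage peaks where they give 426.8 (1.02, 0.926 to 1.12). The learning ratio of the 10 members was lower, at 0.351, and the difference between the lists was not tested. By length, 9 of 17 genes under 50 kb had a learning peak, where 25.3% of autosomal genes of that size did. The genes under 50 kb include the X-linked Porcn, which had none. The count was 3 of 7 at 50 to 200 kb, beside 51.6%, and 5 of 5 over 200 kb, beside 80.4%. Those over 200 kb were Shisa6 with 3 peaks, Shisa9, Dlg1 and Lrrtm4 with 2 each and Gsg1l with 1. Shisa6, Shisa9 and Gsg1l encode further auxiliary subunits of the receptor, Dlg1 the scaffold SAP97, and Lrrtm4 a synaptic adhesion protein.

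The list also holds the remaining TARP genes. Cacng4, Cacng5 and Cacng7 had 7, 4 and 7 homecage peaks and no learning peak, so that 0 of 6 TARP genes had a learning peak. This family was singled out after its values were seen. The chromosome densities give 3.32 learning peaks over these 6 genes, and the 95% Poisson interval of a count of 0 reaches up to 3.69. Whether the family falls short of its chromosomes was not tested. The 50 homecage peaks of the family compare with 63.1.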

How the data were processed

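Pan-Kcr ChIP-seq of dorsal hippocampus was analysed from 2 of 12 libraries, learning and homecage, assigned by their titles. Per the submitters' processing notes, Trimmomatic, BWA and MACS2 were used with build mm10, without stated roles or versions. Per the peak names in the deposited files, broad peaks were called at p 0.01, separately in each library. Whether an input served as control is not given in the sources used here. The deposited lists give chromosome, start, end and name, with no strength or count, so no depth, threshold or test applied. Positions are printed 1-based.

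Peaks touching a gene or its 5 kb flanks by 1 bp were assigned to it, and peaks of the 2 lists were shared if they overlapped by 1 bp. Chromosome density was the number of peaks over the span from the first to the last peak of either list. Gene positions and starts came from RefSeq tables of GRCm38.p6, which matched 10 and 8 members. Exons were not used here. The members, the list of 29 genes and the length classes were chosen with earlier results of these data, or the gene lengths, known. All 10 members were named, with each learning peak, its homecage partner and the widest homecage peak. Intervals came from scipy 1.17.1 under Python 3.11.15, tables were handled with pandas 2.3.3, and counting was tested on simulated data.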

Additional observations from a re-analysis of the deposited data

How the results depend on the processing

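No paired analysis was possible because there was 1 antibody library in each condition, so leaving out a library was not possible either. Alternatives were the gene body alone, flanks of 2 kb and 10 kb, peaks of at least 500 bp, peaks closer than 1 kb merged, the widest homecage peaks in the number of the learning list, peak centres, an overlap of 50% of both peaks and a partner within 500 bp. Of 45 recomputed summary values, 38 stayed within 1.5 times a count or within the counting interval of a share. Some of them could not move. All 5 learning peaks lay inside gene bodies, so the gene body, the 2 kb flank and peak centres left their number fixed. The choice of the widest homecage peaks did not alter the learning list. With peaks of at least 500 bp, the 10 genes kept 0 learning peaks, at 0 genes, and 63 homecage peaks, of which 0% overlapped a learning peak. That 0% followed from the filter, which was applied to both lists and left no learning peak at these genes. No share of learning peaks could then be given. With the widest homecage peaks, 11 remained at 4 genes, and 9.09% of them (1 of 11) overlapped a learning peak. The share of learning peaks with a partner ran from 20% to 80% over the alternatives, all within its interval, which is too wide to tell these shares apart. Flanks of 10 kb added a learning peak at Cacng8 and another at Cnih2, giving 7 peaks at 4 genes. Of 140 recomputed counts of single genes, 26 moved by over 1.5 times, and a count of 0 could not move where peaks were only dropped or merged. Read depth, which the files do not give, limits all counts, and 5 learning peaks allow no finer statement.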
